A study of Mus musculus with 8 samples.

Results

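Hedgehog signalling in these libraries was followed through 9 genes: the ligands Shh and Ihh, the receptor-side genes Ptch1, Hhip and Smo, the transcription factors Gli1, Gli2 and Gli3, and their inhibitor Sufu. They were taken as a list of symbols and matched in the gene tables, where all 9 were found among 43629 genes with counts and 43437 genes with FPKM values. RNA-seq of polyadenylated RNA was available for 4 tumor libraries and 4 small intestine libraries. Both tissues came from mice labelled APC mutant on strain C57B6/129 with no treatment, so the mutation was carried by the small intestine group too. High-fructose corn syrup appears in the series title, yet none of the 8 libraries is labelled as fed with it. The sources used here do not give the Apc allele, the age and sex of the mice, the part of the small intestine or the number of animals. Replicates are not said to be separate animals, so p-values describe the spread among these libraries only, and that spread may be technical.

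Hedgehog ligands are secreted proteins. In the gut they are made mainly by the epithelium, Ihh being the chief ligand of the adult small intestine, and they act on fibroblasts, smooth muscle and their precursors beneath it. Without ligand the receptor Patched, encoded by Ptch1, keeps the membrane protein Smoothened (Smo) inactive. Ligand binding releases Smo, which moves to the primary cilium and leads to active Gli transcription factors. Ptch1, Hhip and Gli1 are themselves classical targets of the pathway, so their transcripts are widely used as its readout.

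The tumor libraries held 53856561 to 67371180 gene-assigned counts and the small intestine libraries 62347648 to 84433335. Values are given as CPM, the count of a gene relative to its library's total after scaling by the trimmed mean of M-values (TMM), which corrects for composition and assumes that most genes are unchanged. The TMM factors were 1.33 to 1.38 in tumor and 0.687 to 0.788 in small intestine, and with library totals alone the median log2 fold change of all genes moved from 0.07 to 0.93, a shift of 0.86. Marker lists were set beside the tissue labels: 10 of 10 enterocyte genes fell in tumor and 10 of 10 Wnt targets of Apc-mutant tumor cells rose. Of all genes tested, 35.4% were called lower in tumor and 38.9% higher. The lists were chosen with earlier results of these data known, so they give no independent check of the labels. The summed level of 10 fibroblast markers was 39.1 to 81.1 CPM in small intestine and 1524 to 2493 CPM in tumor. The same sum over 8 endothelial markers was 12.1 to 30.8 CPM in small intestine and 208 to 264 CPM in tumor.

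Of the 9 genes, 8 passed the filter on low counts and were tested with edgeR's quasi-likelihood test. Ptch1, Hhip, Smo, Gli1, Gli2, Gli3 and Sufu rose in tumor and Ihh fell, each at an adjusted p under 0.05. Hhip, Gli1, Gli2 and Gli3 passed the filter only through the tumor libraries, where they were high, so the number of rises among the genes tested supports nothing by itself. Calls were common in these data: of the 17029 genes tested 74.3% were called, 38.9% higher in tumor and 35.4% lower. The CPM ranges of the tissues did not overlap for these 8 genes, 7 with tumor above and 1 with tumor below, where 37.5% of all genes tested had tumor above and 33.0% had tumor below. In bulk tissue, fewer cells of a type and less RNA per cell cannot be told apart.

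**Figure D1:**
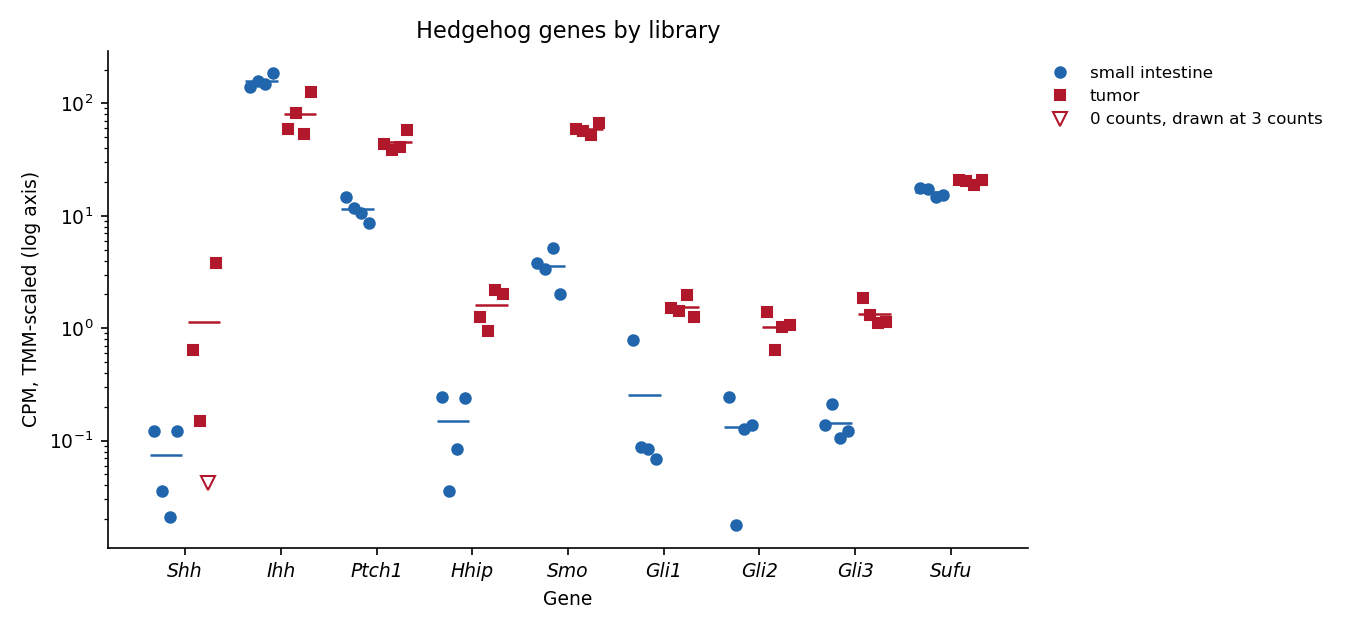
TMM-scaled CPM (log axis) of each gene in each of the 4 small intestine libraries (circles, left of each tick) and 4 tumor libraries (squares, right of each tick), with the mean as a line. The open triangle is the tumor library with 0 Shh counts, drawn at 3 counts. Smo and Ptch1 stand clearly higher in tumor, Ihh lower, and the 4 tumor values of Shh spread from 0 to 3.78 CPM.

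Promoter windows were found for 7 of the 9 genes, and those of Ihh, Smo, Hhip and Gli2 are printed. Ihh fell while the other 3 rose, and each of these windows lies outside its annotated gene. Sufu rose too and its window also lies outside the gene, but it is not printed. Each holds the 250 bases before the transcription start, 5′ to 3′ on the gene's strand, from RefSeq on build GRCm38.p6. The positions are chr1:74951673-74951922 on the minus strand for Ihh, chr6:29735247-29735496 on the plus strand for Smo, chr8:80058009-80058258 on the minus strand for Hhip and chr1:119053620-119053869 on the minus strand for Gli2. Capitals mark the GC box GGGCGG on either strand.
Ihh: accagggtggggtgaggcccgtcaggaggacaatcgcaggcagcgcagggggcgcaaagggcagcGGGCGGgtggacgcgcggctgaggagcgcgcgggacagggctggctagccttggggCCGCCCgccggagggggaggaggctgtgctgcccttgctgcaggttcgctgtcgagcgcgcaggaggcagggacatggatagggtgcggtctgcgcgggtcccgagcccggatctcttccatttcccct
Smo: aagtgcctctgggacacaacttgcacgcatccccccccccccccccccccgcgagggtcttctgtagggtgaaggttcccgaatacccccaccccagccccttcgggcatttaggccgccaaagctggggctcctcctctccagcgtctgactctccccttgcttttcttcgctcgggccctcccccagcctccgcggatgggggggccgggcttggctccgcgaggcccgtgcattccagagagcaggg
Hhip: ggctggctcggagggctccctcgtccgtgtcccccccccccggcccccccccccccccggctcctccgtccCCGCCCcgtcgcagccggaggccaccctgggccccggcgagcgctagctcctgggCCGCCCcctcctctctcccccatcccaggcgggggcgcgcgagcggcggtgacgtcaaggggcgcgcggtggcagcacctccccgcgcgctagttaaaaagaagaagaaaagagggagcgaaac
Gli2: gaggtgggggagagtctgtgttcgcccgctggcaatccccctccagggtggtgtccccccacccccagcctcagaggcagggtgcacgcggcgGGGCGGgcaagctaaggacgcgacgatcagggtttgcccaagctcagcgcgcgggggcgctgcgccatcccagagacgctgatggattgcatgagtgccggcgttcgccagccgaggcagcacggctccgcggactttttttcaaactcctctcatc

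The Ihh and Hhip windows hold 2 GC boxes each, the Gli2 window holds 1 and the Smo window holds none. Over the 7 members with a window in the table, 6 carried at least 1 GC box, as did 32.7% of 32851 promoter windows of the same length. The letters GACCACCCA, a consensus of Gli binding, were in none of the 7 windows and in 0.225% of all windows. The letters CTTTGAT, a consensus of the Tcf factors of the Wnt pathway, were likewise in none of the 7 and in 3.21% of all windows. Both strands were searched, and no motif contains another. All 7 windows held more CpG dinucleotides than the median of 6, from 8 in Sufu to 41 in Ptch1. Shh and Gli1 had no window in this table.

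Among the ligands, Ihh was by far the more abundant in both tissues and fell in tumor, while Shh was near the detection limit in most libraries. Ihh (ENSMUSG00000006538, chromosome 1 from 74945315 to 74951672 in GRCm38, minus strand, protein-coding) stood at 59.3, 82.5, 53.2 and 126 CPM in tumor replicates 1 to 4. In small intestine replicates 1 to 4 it stood at 140.4, 159, 148 and 185 CPM. Every tumor library lay below every small intestine library, and tumor replicate 4 came closest to them. The mean was 80.1 ± 32.9 CPM in tumor against 158 ± 19.5 CPM in small intestine (SD, 4 libraries each), and the log2 fold change was -0.98 ± 0.25 (SE; edgeR adjusted p = 0.00599).

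The fall of Ihh depended on the scaling between tissues. With library totals alone, where 62.0% of genes were called higher in tumor and 17.6% lower, its log2 fold change was -0.10 (edgeR adjusted p = 0.726). With the deposited FPKM values, where 64.6% were called higher and 18.1% lower, it was -0.24 (limma adjusted p = 0.397). Epithelial transcripts were also lower in tumor: with TMM, 6 of 8 epithelial markers fell, 1 rose and 1 was not called, beside 35.4% of all genes called lower. They summed to 6426 to 8748 CPM in tumor, against 14459 to 19471 CPM in small intestine. Their median log2 fold change was -1.29 with TMM, where library totals alone shifted the median of all genes by 0.86. Epithelial values with library totals are not given here, so the size of this fall depends on the scaling too. Across tumor replicates 1 to 4 the sums were 8323, 8748, 8661 and 6426 CPM, where Ihh was 59.3, 82.5, 53.2 and 126 CPM. Tumor replicate 4 thus joined the highest Ihh to the lowest sum. Set against the mean log2 level of those markers within each library, Ihh differed by -0.15 on the log2 scale between tissues (exact 2-sided permutation p = 0.829; -0.48 to 0.06 with 1 library left out), with an SD of 0.71 among tumor libraries and 0.14 among small intestine libraries. The part of epithelial content in the Ihh difference was not tested further.

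Shh, the other ligand (ENSMUSG00000002633, chromosome 5 from 28456815 to 28467256, minus strand, protein-coding), had 58, 12, 0 and 335 counts in tumor replicates 1 to 4 and 7, 2, 1 and 7 counts in small intestine replicates 1 to 4. These are 0.640, 0.149, 0 and 3.78 CPM in tumor, against 0.122, 0.0354, 0.0210 and 0.121 CPM in small intestine. Tumor replicate 4 held most of the Shh counts, replicates 1 and 2 lay above the small intestine libraries, and replicate 3 had no count at all, so the groups overlapped. A count of 0 there allows up to 0.0419 CPM by the limit of 3 counts, a limit that covers counting error only. Shh did not pass the filter on low counts.

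Fitted without that filter, where 27.3% of 27282 genes were called higher and 22.6% lower, Shh had a log2 fold change of 3.96 ± 1.31 (SE; edgeR adjusted p = 0.0248). Without tumor replicate 4 it was 1.90 (adjusted p = 0.177), and it also missed 0.05 without small intestine replicate 1 (4.25, adjusted p = 0.0550), replicate 2 (3.70, adjusted p = 0.0569) or replicate 3 (3.66, adjusted p = 0.0713). With limma on log2(FPKM + 1) and no filter, 7 of the 9 Hedgehog genes were called higher, and Shh was not among them. Changes of low genes are understated on that scale. Exons of Shh overlap those of the opposite-strand genes 9530036O11Rik (446 shared bases) and Gm26894 (361 shared bases). These had at most 12 and 14 counts in a library. The sources used here do not give the strand setting of the counting, so reads of such partners cannot be told apart.

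On the receptor side all 3 genes rose in tumor. Smo (ENSMUSG00000001761, chromosome 6 from 29735503 to 29761365, plus strand, protein-coding), the signal transducer that Patched holds inactive, had the largest log2 fold change of the 8 genes tested. It stood at 59.1, 56.6, 51.9 and 67.0 CPM in tumor, against 3.84, 3.34, 5.12 and 2.0 CPM in small intestine. The lowest tumor library was far above the highest small intestine library. Its log2 fold change was 4.04 ± 0.26 (SE; edgeR adjusted p = 1.04e-06), and 6.37% of all genes tested had a larger one.

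Ptch1 (ENSMUSG00000021466, chromosome 13 from 63508328 to 63573598, minus strand, protein-coding), the Hedgehog receptor and a target of the pathway, stood at 43.6, 38.2, 41.2 and 57.3 CPM in tumor. In small intestine it stood at 14.6, 11.8, 10.7 and 8.69 CPM. The groups were well apart, and the highest value belonged to tumor replicate 4. A log2 fold change of 1.98 ± 0.19 (SE; edgeR adjusted p = 1.01e-05) resulted, with 16.4% of all genes above it.

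Hhip (ENSMUSG00000064325, chromosome 8 from 79965851 to 80058006, minus strand, protein-coding) encodes a membrane protein that binds and sequesters Hedgehog ligands. It was a rare transcript, at 1.25, 0.953, 2.19 and 2.0 CPM in tumor, against 0.243, 0.0354, 0.0840 and 0.241 CPM in small intestine. Small intestine replicates 2 and 3 rested on 2 and 4 counts, and no small intestine library reached the lowest tumor library. Hhip had a log2 fold change of 3.37 ± 0.56 (SE; edgeR adjusted p = 0.000423).

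All 3 Gli factors rose from levels that were close to the detection limit in small intestine. Gli1 (ENSMUSG00000025407, chromosome 10 from 127329882 to 127341974, minus strand, protein-coding), an activator that is itself switched on by the pathway, stood at 1.51, 1.41, 1.96 and 1.26 CPM in tumor. In small intestine it stood at 0.781, 0.0884, 0.0840 and 0.0690 CPM, replicate 1 with 45 counts and the others with 4 or 5. The groups did not overlap, but small intestine replicate 1 was 9.71 times the mean of the other 3. The log2 fold change was 2.56 ± 0.73 (SE; edgeR adjusted p = 0.0103) with all libraries and 4.22 (adjusted p = 1.47e-05) without that library.

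In the same small intestine replicate 1 the summed fibroblast markers were 1.53 times, the endothelial markers 1.71 times and the macrophage and leukocyte markers 1.37 times the mean of the other small intestine libraries. Smooth muscle markers were at 0.920 times and epithelial markers at 0.767 times that mean. Their part in its Gli1 level was not tested. Gli1 shares 62 exonic bases with the opposite-strand gene Arhgap9, which had 262 to 1053 counts per library, and 265 with the antisense gene Gm47200.

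Gli2 (ENSMUSG00000048402, chromosome 1 from 118834132 to 119053619, minus strand, protein-coding), the main activator among the factors present before signalling, stood at 1.39, 0.644, 1.02 and 1.07 CPM in tumor. In small intestine it stood at 0.243, 0.0177, 0.126 and 0.138 CPM, from 14, 1, 6 and 8 counts. Tumor replicate 2 was the lowest tumor library and still above all small intestine libraries. Gli2 had a log2 fold change of 2.95 ± 0.55 (SE; edgeR adjusted p = 0.000902).

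Gli3 (ENSMUSG00000021318, chromosome 13 from 15463235 to 15730026, plus strand, protein-coding) encodes the factor that is processed to a repressor when no ligand is present. It stood at 1.85, 1.30, 1.12 and 1.13 CPM in tumor, against 0.139, 0.212, 0.105 and 0.121 CPM in small intestine. The groups were apart, with tumor replicate 1 the highest. The log2 fold change was 3.21 ± 0.34 (SE; edgeR adjusted p = 2.20e-05). Exons of Gli3 overlap those of the opposite-strand Gm6556, which had at most 2 counts in a library, and exons of Hhip overlap those of Gm27820, which had 0 counts.

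Sufu (ENSMUSG00000025231, chromosome 19 from 46396896 to 46488804, plus strand, protein-coding), which binds Gli proteins in the cytoplasm and restrains them, showed the smallest rise. It stood at 20.8, 20.5, 18.8 and 20.8 CPM in tumor, against 17.8, 17.2, 14.5 and 15.2 CPM in small intestine. The groups did not overlap but nearly touched, the lowest tumor library being 1.06 times the highest small intestine library. The log2 fold change of 0.32 ± 0.11 (SE; edgeR adjusted p = 0.0194) was smaller than the shift between scalings, and with library totals alone it was 1.18.

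**Figure D2:**
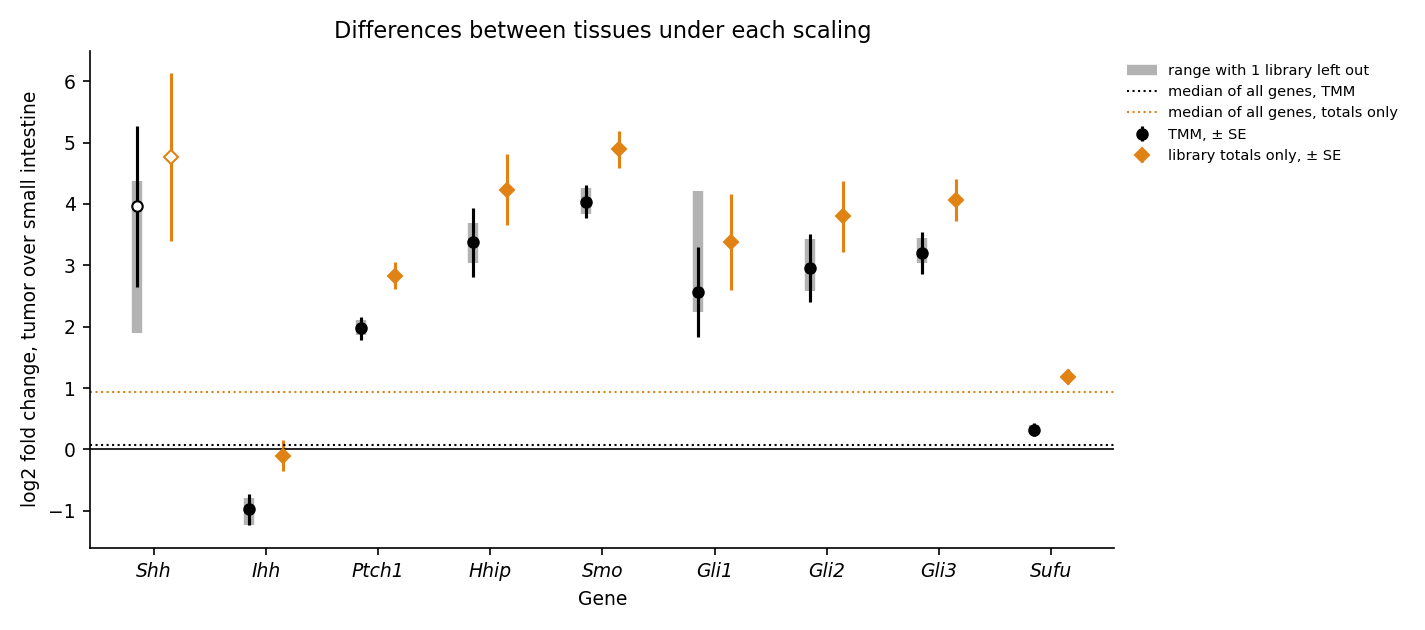
Log2 fold change (tumor over small intestine) of each gene with TMM scaling (circles) and with library totals only (diamonds), with SE as bars. Open symbols for Shh are fits without the low-count filter, grey bars give the range when 1 library at a time is left out, and dotted lines give the median of all genes tested. Ihh moves from -0.98 to -0.10 between scalings, and the grey bars are longest for Shh and Gli1.

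Levels of different genes were compared as FPKM, the authors' values per gene length. In small intestine the order by mean was Ihh (44.0), Sufu (2.15), Ptch1 (1.05), Smo (0.565), Hhip (0.0537), Gli1 (0.0513), Shh (0.0310), Gli3 (0.0308) and Gli2 (0.0180). The ranges of neighbours in that order were apart between Ihh and Sufu, Sufu and Ptch1, and Smo and Hhip. Those of Ptch1 and Smo overlapped, as did all neighbours from Hhip to Gli2. Hhip was listed at 0 in small intestine replicate 2, which had 2 Hhip counts.

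In tumor the order by mean FPKM was Ihh (39.5), Smo (16.8), Ptch1 (7.94), Sufu (5.35), Shh (0.960), Hhip (0.676), Gli1 (0.430), Gli2 (0.255) and Gli3 (0.216). Smo ranked directly below Ihh in tumor and below Sufu and Ptch1 in small intestine. Its FPKM exceeded that of Ptch1 in all 4 tumor libraries, whereas that of Ptch1 exceeded Smo in all 4 small intestine libraries. Neighbours overlapped between Shh and Hhip, Hhip and Gli1, and Gli2 and Gli3. The Shh mean rests on tumor replicate 4 at 3.08 FPKM, since the others were at 0.537, 0.170 and 0.0540, the last being replicate 3, which had 0 counts.

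**Figure D3:**
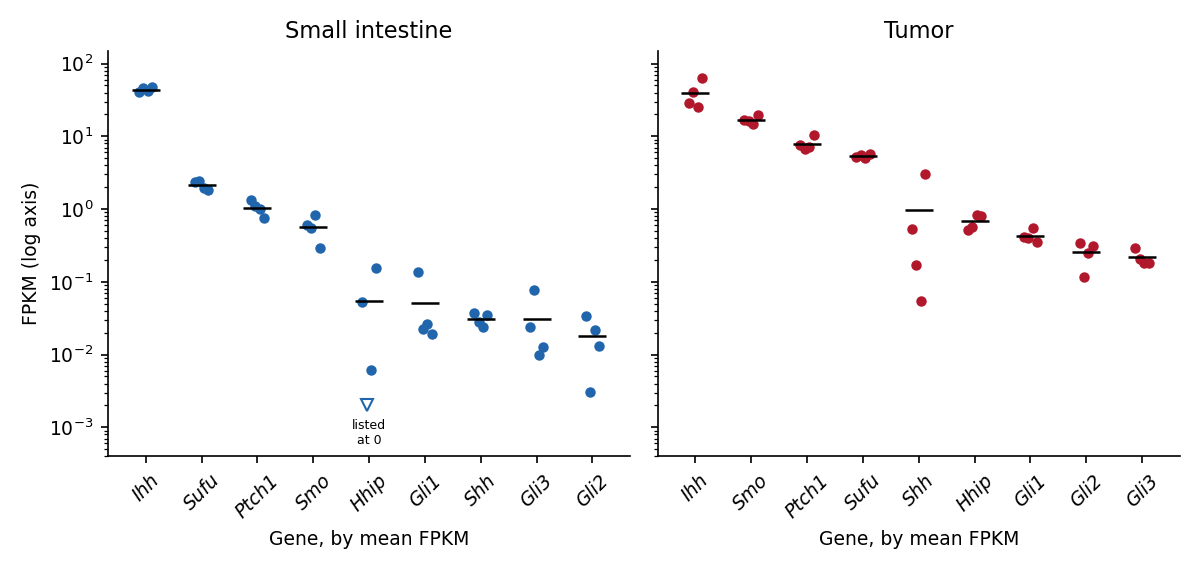
Deposited FPKM (log axis) of the 9 genes in the small intestine libraries (left panel) and tumor libraries (right panel), ordered by mean within each tissue, with the mean as a line and the value listed at 0 as an open triangle. Ihh leads in both panels, Smo moves from 0.565 to 16.8, and the Gli factors stay under 1 FPKM in each library.

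Ratios within a library do not depend on the scaling between tissues. From counts 13 were computed, and with 4 libraries against 4 the smallest exact 2-sided permutation p is 0.0286. The log2 ratio of Ptch1 to Smo was -0.44, -0.57, -0.33 and -0.22 in tumor and 1.93, 1.82, 1.06 and 2.11 in small intestine. Smo counts exceeded Ptch1 counts in every tumor library, and the reverse held in every small intestine library. The means differed by -2.12 (exact permutation p = 0.0286, Benjamini-Hochberg adjusted 0.124 over the 13 ratios).

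The log2 ratio of Gli1 to its inhibitor Sufu was -3.78, -3.85, -3.26 and -4.04 in tumor and -4.50, -7.46, -7.27 and -7.61 in small intestine. Tumor was higher in every library, with small intestine replicate 1 near the tumor values. The difference was 2.98 (exact permutation p = 0.0286, adjusted 0.124), and 3.72 without that library. Among the 3 Gli factors themselves, the tumor minus small intestine difference was 0.09 for Gli1 to Gli2, 0.15 for Gli1 to Gli3 and 0.06 for Gli2 to Gli3, with overlapping groups and exact permutation p from 0.886 to 1. Their SD among small intestine libraries was 1.45, 1.62 and 1.75, and with 1 library left out the differences ran from -0.80 to 0.93, so no direction is given.

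Fibroblast transcripts rose along with the receptor and factor genes. Of 10 fibroblast markers 9 were called higher, beside 38.9% of all genes tested. Their median log2 fold change was 4.31, beside 0.07 for all genes. Against the mean log2 level of these markers, Ptch1 was lower in every tumor library than in any small intestine library, by 2.58 on average (a difference of -2.58, exact permutation p = 0.0286, adjusted 0.124). Gli1 against the same markers differed by -1.26 with overlapping groups (exact permutation p = 0.0571, adjusted 0.186), and by -0.65 without small intestine replicate 1. Among smooth muscle markers 7 of 10 rose and 3 were not called, with summed levels of 185 to 222 CPM in tumor, against 43.5 to 118 CPM in small intestine. Among them, Myocd had 0 counts in small intestine replicates 1 to 3 and Lmod1 had 0 in replicate 2. In those libraries they enter the mean log2 level only through the 0.5 added to each count, which affects both ratios that follow. Against the smooth muscle markers the Ptch1 difference was 0.03 (exact permutation p = 0.971, -0.29 to 0.50 with 1 library left out). The Gli1 difference was 1.35 (exact permutation p = 0.286), and 2.13 without small intestine replicate 1, 0.89 without replicate 3 and 0.83 without replicate 4. The part of stromal content in the levels of the receptor and factor genes was not tested further.

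No count ratio passed the adjustment over all 13. With FPKM in place of counts, 10 ratios had no gene listed at 0 and were adjusted among themselves. Of these, 6 reached the smallest possible exact permutation p, adjusted 0.0476 over the 10. Among them were Ptch1 to Smo (-2.05), Gli1 to Sufu (2.26) and Ptch1 to fibroblast markers (-2.44). These reached that smallest p in counts too. The count ratios were adjusted over 13 and the FPKM ratios over 10, so these outcomes are not directly comparable. At 4 libraries against 4, a ratio at the smallest p passes only if enough other ratios reach it too. In counts 3 ratios reached it and in FPKM 6, so passing or failing says nothing about a single ratio. Hhip to Ptch1 differed by 1.59 in counts (exact permutation p = 0.0857, adjusted 0.223), and by 1.06 without small intestine replicate 2. Ihh to Shh differed by -2.76 (exact permutation p = 0.200, adjusted 0.433), by -2.14 without tumor replicate 1, -4.26 without tumor replicate 3 and -1.65 without tumor replicate 4. For Shh against epithelial markers the difference was 2.61 (exact permutation p = 0.314), with 3 tumor libraries above all small intestine libraries and 1 below them. It was 4.32 without tumor replicate 3 and 1.17 without tumor replicate 4. Tumor replicate 3 had 0 Shh counts and enters both Shh ratios only through the 0.5 added to each count.

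**Figure D4:**
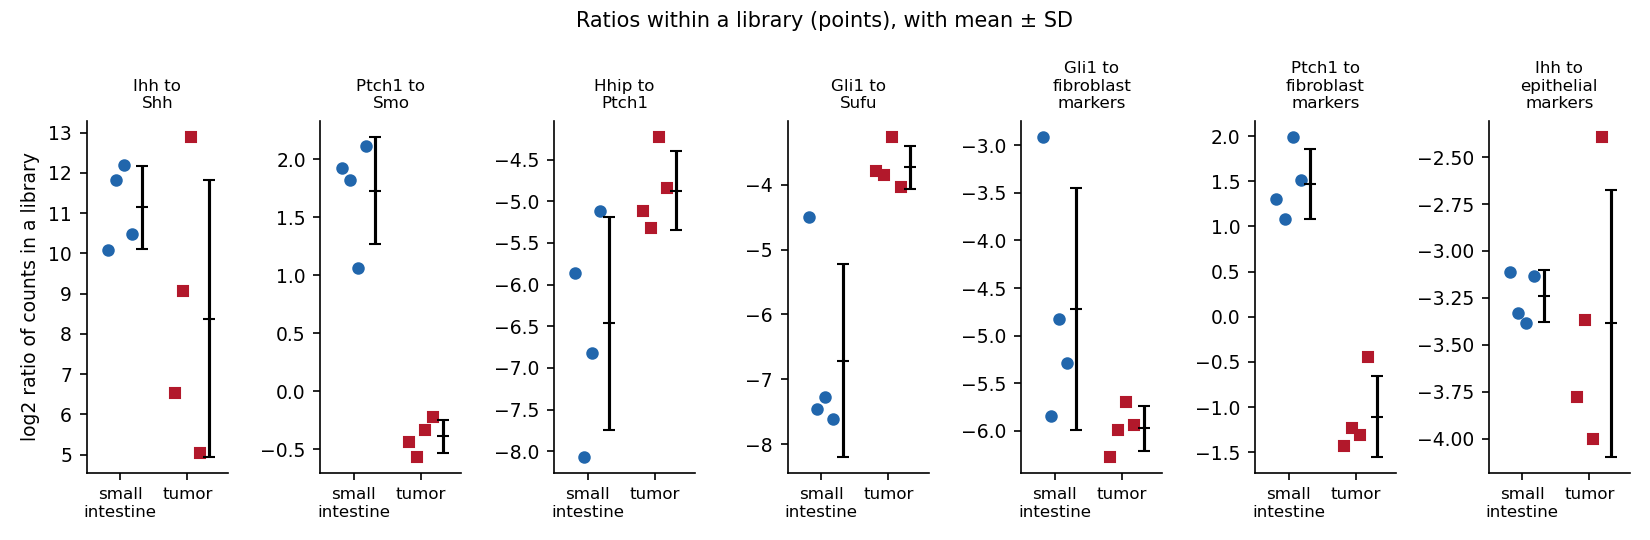
Log2 ratio of counts in each library for 7 of the 13 ratios (circles, small intestine; squares, tumor), with mean and SD beside the points; each panel has its own axis. Ptch1 to Smo, Gli1 to Sufu and Ptch1 to fibroblast markers separate the tissues, and in the Gli1 to Sufu panel small intestine replicate 1 lies at -4.50, far above the other 3.

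Counts over the companion lists stand beside the shares of all genes tested, 38.9% called higher and 35.4% lower, and genes near 0 in small intestine passed the filter through tumor here too. Among genes that release ligand or help it bind, of 11 listed, 10 were tested, 7 rose, 1 fell and 2 were not called, with a median log2 fold change of 2.55 beside 0.07 for all genes. Gas1, a membrane protein that helps ligand bind Patched, rose from 0.586 ± 0.312 to 14.0 ± 8.47 CPM (SD, 4 libraries each; log2 fold change 4.57). The third ligand, Dhh, rose by 4.01 on the log2 scale to 1.39 ± 0.271 CPM (4.64 without small intestine replicate 2). Scube2, a secreted protein that helps release ligand, rose by 3.81 to 0.468 ± 0.296 CPM, and by 5.05 without small intestine replicate 4.

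Disp2, a relative of the ligand release protein Dispatched, fell by 3.54 on the log2 scale. Boc, Scube1 and Cdon were chosen from this list after their values were seen. The co-receptor Boc rose by 2.92 and the Scube2 relative Scube1 by 3.77, while Cdon, the relative of Boc, stood at 12.6 CPM in tumor, against 13.2 CPM in small intestine, and was not called (log2 fold change -0.07, edgeR adjusted p = 0.698). With library totals alone Cdon was at 0.79, a move of the same size as that of the median of all genes.

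The genes that carry the signal through the cilium and cytoplasm were split: of 17 tested, 10 rose, 5 fell and 2 were not called, with a median of 1.19, and with library totals alone 13 rose and 2 fell, where 62.0% of all genes rose and 17.6% fell. The falls lay near or below the shares of all genes under both scalings. Gpr161, a ciliary receptor that restrains the pathway, rose by 7.85 on the log2 scale, from 0.0479 to 11.8 CPM. Its small intestine mean lay below the level of 3 counts there (0.0517 to 0.0630 CPM), so the size of that rise is uncertain. Evc2, a ciliary partner of Smo, rose by 4.70, and the ciliary kinesin Kif7, which acts on Gli proteins, by 4.09. Fkbp8, which antagonises the pathway, fell by 1.52.

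None of the 6 genes for turnover of Gli proteins was called higher, where 38.9% of all genes tested were. Of the 6, 3 fell, beside 35.4% of all genes, and 3 were not called. Their median log2 fold change was -0.22. Numb and Itch, which together direct the ubiquitination of Gli1, fell by 2.01 and 1.59 on the log2 scale. Cul3, the scaffold of a ubiquitin ligase that degrades Gli proteins, was at -0.37, but with library totals alone it was at 0.50 (edgeR adjusted p = 0.000315). Under that scaling 4 of the 6 rose and 2 fell, beside 62.0% and 17.6% of all genes. With 6 genes such counts are coarse.

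Genes known as Hedgehog targets in gut stroma rose in 8 of 10 tested cases, out of 12 listed, while 1 fell and 1 was not called. Of all genes tested, 38.9% were called higher and 35.4% lower. The median log2 fold change of the list was 3.36, beside 4.31 for the fibroblast markers, of which 9 of 10 rose. The part of stromal content in these rises was not tested. Bmp4, a growth factor of the villus stroma, stood at 38.5, 34.5, 33.0 and 36.3 CPM in tumor, against 2.26, 0.725, 0.798 and 1.55 CPM in small intestine, and its log2 fold change was 4.73. Bmp5 and the transcription factor Foxl1, a marker of subepithelial cells, rose by 4.75 and 4.50 on the log2 scale. Foxf1, another stromal factor and chosen after its values were seen, rose by 3.63. Without tumor replicate 4, and likewise without small intestine replicate 1, 2 genes of this list fell. Bmp2 fell by 0.98, but with library totals alone it was at -0.12 (edgeR adjusted p = 0.641).

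Markers of other cell types of the gut wall differed by list. All 8 endothelial markers rose, where 38.9% of all genes tested were called higher and 35.4% lower. Of 8 macrophage and leukocyte markers 3 rose, 3 fell and 2 were not called, shares close to those of all genes. Of 10 enteric glia and neuron markers 6 were tested, 4 rising and 2 falling. The falling genes were Erbb3, with a mean of 858 CPM in small intestine, and Chat, with 0.743 CPM. The glial factor Sox10 had 0 counts in every small intestine library and a mean of 0.0212 CPM in tumor, from 7 counts in all. That mean lies below the level of 3 counts in tumor (0.0331 to 0.0419 CPM), so no difference is read from it. Which cells held Erbb3 or the Hedgehog transcripts was not tested.

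**Figure D5:**
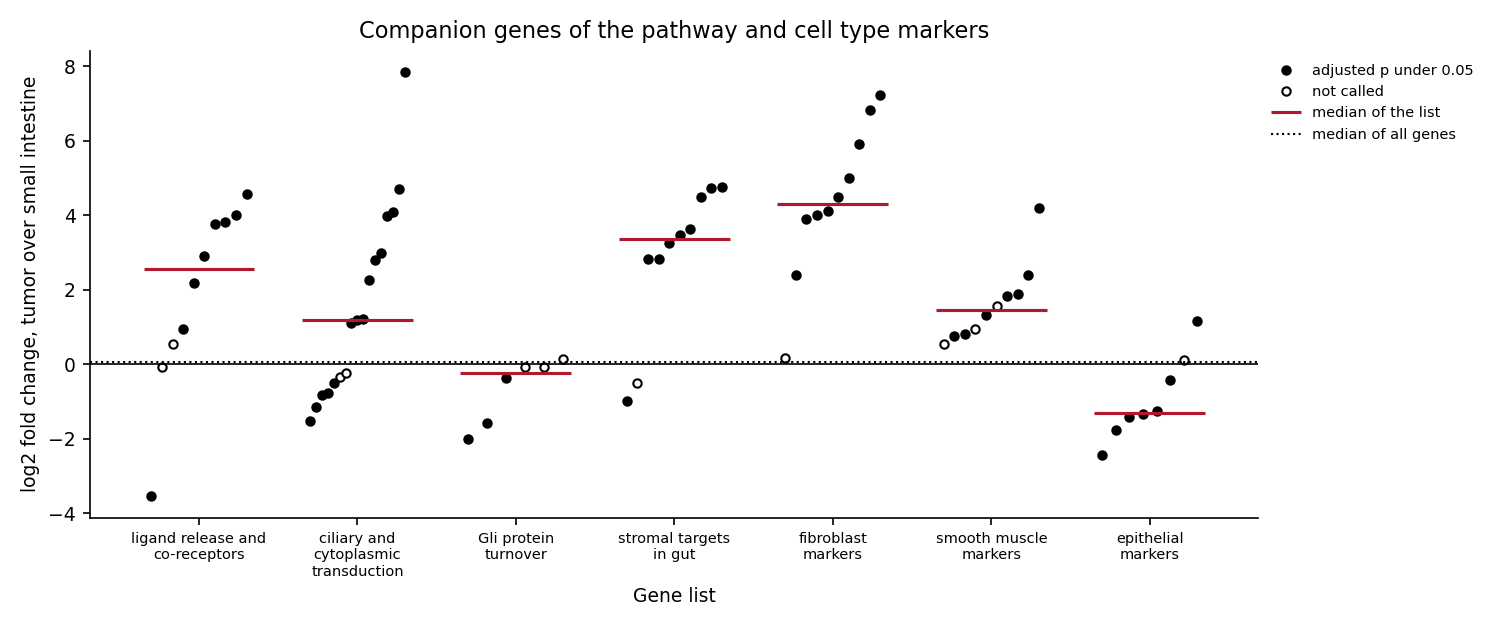
Log2 fold change (tumor over small intestine) of the tested genes in 4 companion lists of the pathway and 3 marker lists, 1 point per gene, with the list median as a bar. Release and co-receptor genes, stromal targets and fibroblast markers lie mostly above 2, while turnover genes lie at or below 0.16.

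The genes nearest in pattern to Ihh and to Gli1 were found over 8 libraries among 10951 genes with a mean of at least 5 CPM, by the root mean square difference of centred log2(CPM + 0.5) values. Nearest to Ihh were Camk1d (0.16), Pml (0.21) and Bmp2k (0.23). Camk1d stood at 38.2, 47.4, 40.2 and 82.2 CPM in tumor, again highest in replicate 4. Nearest to Gli1 were Tmed6 (0.17), Cacna1h (0.23) and Acvrl1 (0.23). At the level of Gli1 the added 0.5 flattens its pattern: Acvrl1 was at 7.03 CPM in small intestine replicate 1 and at 3.46 to 4.48 CPM in the others, a smaller gap than that of Gli1.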

How the data were processed

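Read counts per gene were deposited by the authors as whole numbers without normalization, and FPKM values, which the authors also deposited, relate fragments to gene length and library size. The submitters' processing notes name Cufflinks 2.2.1, HTSeq 0.6.0, STAR and FastQC with build GRCm38, and the strand setting is not given in the sources used here. Samples were grouped by the tissue label, and no batch is labelled. GENCODE symbols (GRCm38) were joined on Ensembl identifiers, which covered 42462 of 43629 genes. Counts were tested with edgeR 4.0.16 (quasi-likelihood, TMM, filterByExpr with a minimum count of 10) in R 4.3.3, with tissue as the single factor. Benjamini-Hochberg adjustment ran over all 17029 genes tested, and an adjusted p under 0.05 was called. FPKM values were tested with limma 3.58.1 on log2(FPKM + 1) where the mean reached 1; changes of low genes are understated on that scale. Ratios used counts plus 0.5 and exact 2-sided permutation tests (scipy 1.17.1). Libraries of a group differed beyond sampling noise (chi-square of 38.9 or more per degree of freedom). Members and gene lists were chosen with earlier results of these data known. From each companion list the 3 called genes with the largest change, and the largest in the other direction, were named; 1 gene was left out of its list and is not reported here. Alternatives were DESeq2 1.42.0 and its size factors, library totals, other filters and pseudocounts, a replicate block, and each library left out.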

Additional observations from a re-analysis of the deposited data

Results flagged for a closer look

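Each group of 4 libraries was searched for a highest or lowest library whose gap to its neighbour took up more than 0.829 of the group's range. Over 62 groups of values (CPM, FPKM and log2 ratios), 6 were found, and chance gives about 1 in 20 for independent groups. These groups are not independent, since the same gene enters as CPM, as FPKM and in ratios. The number found can therefore not be set against that rate.

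Shh in tumor replicate 4 was at 3.78 CPM, with the other tumor libraries at 0 to 0.640 CPM, and at 3.08 FPKM, with the others at 0.0540 to 0.537. Gli1 in small intestine replicate 1 was at 0.781 CPM, with the others at 0.0690 to 0.0884 CPM, and at 0.137 FPKM, with the others at 0.0193 to 0.0264. The Gli1 to Sufu log2 ratio was -4.50 in that library and -7.61 to -7.27 in the others. The Gli2 to Gli3 log2 ratio was -3.06 in small intestine replicate 2, where Gli2 had 1 count, and 0.18 to 0.77 in the other small intestine libraries.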

How the results depend on the processing

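The 7 rises of tested Hedgehog genes kept their direction and stayed under an adjusted p of 0.05 in each alternative that tested them. The call of Ihh did not: the number of Hedgehog genes called lower was 0 with library totals and 0 with FPKM at each pseudocount and filter. With FPKM at a mean of at least 1, 3 were called higher at either pseudocount, because fewer genes pass that filter. Over all genes, 10564 were higher and 2996 lower with library totals. With FPKM 2326 were lower (2328 with a pseudocount of 0.1), and 11174 were higher and 3007 lower without a filter. Cul3 turned to 0.50 with library totals and to 0.35, 0.36 (pseudocount 0.1) and 0.35 (no filter) with FPKM, and Cdon, not called with TMM, stood at 0.79, 0.50, 0.76 and 0.50. Of the 10 ratios adjusted together with FPKM, 6 reached the smallest exact permutation p and so passed together. They were Ihh to Shh -3.77, Ptch1 to Smo -2.05 and Gli1 to Sufu 2.26. Also passing were Gli1 to fibroblast markers -1.79, Ptch1 to fibroblast markers -2.44 and Shh to epithelial markers 3.63. The Shh ratios rest in tumor replicate 3 on 0.0540 FPKM, although its Shh count was 0. In counts the Shh ratios had overlapping groups, with exact permutation p of 0.200 (to Ihh) and 0.314 (to epithelial markers). The cause of these shifts was not tested. Same-numbered tumor and small intestine libraries did not deviate together from their group means (correlations of -0.16 to 0.01). Such correlations cannot show whether same-numbered libraries share an animal, and the sources used here do not say. With the replicate number as a block, 6301 genes were higher and 5592 lower, and 7 Hedgehog genes were higher and 1 lower. At 1 to 14 counts per small intestine library (Shh, Hhip, Gli2 and Gli3), depth limits the precision of the fold changes.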

Other observations

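Libraries differed within a tissue over the Hedgehog genes. Tumor replicate 4 was the highest tumor library for 5 of 9 genes (Shh, Ihh, Ptch1, Smo and Sufu) and tumor replicate 3 the lowest for 5 (Shh, Ihh, Smo, Gli3 and Sufu). In tumor replicate 4, Ihh was 1.93 times and Ptch1 1.40 times the mean of the other 3 tumor libraries, while Gli1 was 0.777 times and Gli3 0.792 times. The same library had the lowest summed fibroblast markers of the tumor group, 1524 CPM, and the lowest summed epithelial markers, 6426 CPM. Within its tissue, small intestine replicate 1 led for 6 of 9 genes (Shh, Ptch1, Hhip, Gli1, Gli2 and Sufu) and was lowest for Ihh.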
